A study of Mus musculus with 26 samples.

Results

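The comparison set RNA of the preoptic area of ovariectomized female mice against that of intact females in diestrus. Its members were the supernatant libraries of both groups, 6 of the 26 libraries of the series, taken by the sex, gonadal state and fraction in their labels. All animals carried the genotype GnRH CRE x Floxed L10a-GFP, in which Cre recombinase made in neurons of gonadotropin-releasing hormone (GnRH) switches on a GFP-tagged ribosomal protein L10a. Ribosomes were pulled down through the tag from preoptic punches, and the supernatant is what that pull-down left behind, so it holds RNA of all preoptic cell types and less of the GnRH neurons. The mice were adults of 55 to 165 days, and the labels state that uterine mass and serum luteinizing hormone were measured to check steroid state. The time between surgery and tissue collection, and any hormone replacement, are not stated in the labels. Each library came from a pool of animals. The 3 intact pools, numbered 0, 1 and 2 in the labels, held 7, 6 and 5 mice, and each of the 3 ovariectomized pools held 7.

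The preoptic area contains the neurons through which ovarian steroids act on GnRH release. In rodents, kisspeptin neurons of its periventricular zone express Kiss1 at a higher level when estradiol is present, in contrast to the kisspeptin neurons of the arcuate nucleus, where estradiol lowers it. Removal of the ovaries takes away the main source of estradiol and progesterone, which act in these cells through the receptors encoded by Esr1, Esr2 and Pgr.

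The 6 libraries held 27217000 to 56669000 estimated counts, and levels are given in CPM, the count relative to the scaled library size. A test of all 13 supernatants in 4 groups of sex and gonadal state, made with edgeR over 16360 genes, estimated the spread, and a gene was called at an adjusted p under 0.05. Neuronal markers summed to 5302 to 6480 CPM in intact and 6048 to 6843 CPM in ovariectomized libraries, and the 16 preoptic markers to 580 to 647 and 495 to 612 CPM. The supernatant of intact replicate 2 stood apart in transcripts of the pull-down. Gnrh1, the hormone precursor, was at 98.7, 68.6 and 1561 CPM in the intact and 284, 455 and 94.8 CPM in the ovariectomized libraries. The 12 pull-down transcripts summed to 196, 163 and 1749 CPM against 406, 586 and 193 CPM. The same library held 5.29 CPM of 4 Y-linked genes, against 0.600 to 1.74 CPM in the 5 other female supernatants and 90.2 to 102 CPM in the 7 male ones. The labels number the libraries, and intact replicates 0 and 1 carry numbers 1 and 3, intact replicate 2 number 11 and the ovariectomized libraries 13 to 15. Of the libraries numbered 11 or later, 1 intact stood against 3 ovariectomized, so that values with a term for this numbering, estimated with the male supernatants, are given beside the results. Without intact replicate 2, every intact female supernatant is numbered under 11 and every ovariectomized one above it. Values given without that library thus cannot separate surgery from numbering among the females. What the numbers stand for is not given in the sources used here. In a principal component analysis of the 6 libraries, ovariectomized replicate 2 (18.9) lay beside intact replicate 0 (19.5) on component 1, which took 40.3% of the variance, apart from the other two ovariectomized libraries (-36.0 and -11.9).

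Kiss1, the gene of kisspeptin, a peptide that strongly excites GnRH neurons, fell after ovariectomy. It was at 19.8, 26.3 and 11.03 CPM in intact replicates 0, 1 and 2, and at 4.23, 2.68 and 3.15 CPM in the ovariectomized ones. Every intact library lay above every ovariectomized library, and the lowest intact one was replicate 2. The means were 19.1 ± 7.68 and 3.35 ± 0.793 CPM (SD, n = 3 pools each), which is 5.69-fold lower (log2 -2.51 ± 0.31 SE, adjusted p 0.00784, edgeR). An exact two-sided permutation test on the 6 CPM values gave p = 0.1, the smallest that 3 against 3 can give. In bulk RNA, fewer Kiss1 cells and less Kiss1 RNA per cell cannot be told apart. Kiss1 was the single gene called lower of 16360 (0.00611%).

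Without intact replicate 2, the library with pull-down transcripts, the Kiss1 difference had a log2 of -2.78 (adjusted p 0.000923). Surgery and library numbering coincide among the female libraries left there. With the term for the library numbering the Kiss1 difference was smaller, -1.88 (adjusted p 0.0327). Among libraries numbered 11 or later it was -1.77 and no longer passed (adjusted p 0.161). The call was also lost without ovariectomized replicate 1 (log2 -2.39, adjusted p 0.152), with the 6 female supernatants alone (-2.55, adjusted p 0.0549) and in limma voom (-2.42, adjusted p 0.0744). In DESeq2 the adjusted p was 2.33e-11.

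The order of Kiss1 levels across the supernatants was intact females, ovariectomized females, intact males and castrated males. Intact males were at 3.12, 3.93, 2.16 and 2.33 CPM (2.89 ± 0.810, n = 4), which overlapped the ovariectomized females. Castrated males were lowest, at 0.696 ± 0.146 CPM (n = 3), with every library below those of the other 3 groups. The castration difference had a log2 of -2.04 ± 0.33 and did not pass (adjusted p 0.285). The ovariectomy difference minus the castration difference was -0.47 ± 0.44 (adjusted p 1.00), so a difference between the sexes in the size of the change was not shown. In the immunoprecipitates, which are enriched for GnRH neurons, Kiss1 was at 30.5, 30.2 and 11.4 CPM in intact and 2.94, 3.67 and 1.95 CPM in ovariectomized females (log2 -3.07 ± 0.65, adjusted p 0.994). These groups did not overlap either. Intact replicates 0 and 1 of this fraction are numbered 6 and 8, intact replicate 2 is 21 and the ovariectomized ones 23 to 25. No numbering term was fitted to the immunoprecipitate values. The ovariectomy change in the immunoprecipitate minus that in the supernatant was -0.53 ± 0.69 (adjusted p 0.923).

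**Figure D1:**
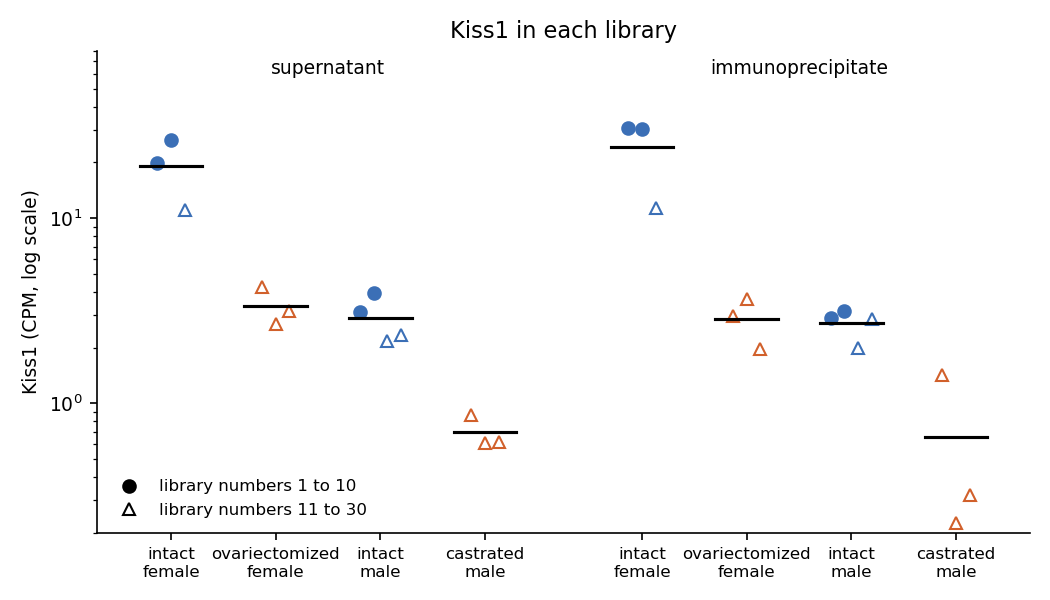
Kiss1 level (CPM, log axis) of each of the 26 libraries, by fraction, sex and gonadal state. Points are libraries, filled for library numbers 1 to 10 and open triangles for 11 to 30, and bars are group means. In the supernatants the intact females (11.03 to 26.3 CPM) lie above the ovariectomized females (2.68 to 4.23 CPM), and castrated males lie lowest.

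Kiss1 lies on chromosome 1 from 133321875 to 133329901 on the plus strand. The 250 bases before its RefSeq start are shown with those of Nts and Vip, since these 3 were the tested neuropeptide genes whose ovariectomized libraries all lay below the intact ones. The windows are chr1:133326962-133327211 (plus strand) for Kiss1, chr10:102490419-102490668 (minus strand) for Nts and chr10:5638968-5639217 (plus strand) for Vip, from RefSeq on GRCm38.p6. Capitals mark GGTCA or its reverse complement TGACC, the core sequence that estrogen receptors bind, searched on both strands.
Kiss1: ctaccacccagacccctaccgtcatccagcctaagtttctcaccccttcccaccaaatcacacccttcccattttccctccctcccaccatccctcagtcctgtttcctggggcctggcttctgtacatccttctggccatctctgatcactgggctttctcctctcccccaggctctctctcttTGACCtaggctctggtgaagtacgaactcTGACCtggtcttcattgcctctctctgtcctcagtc
Nts: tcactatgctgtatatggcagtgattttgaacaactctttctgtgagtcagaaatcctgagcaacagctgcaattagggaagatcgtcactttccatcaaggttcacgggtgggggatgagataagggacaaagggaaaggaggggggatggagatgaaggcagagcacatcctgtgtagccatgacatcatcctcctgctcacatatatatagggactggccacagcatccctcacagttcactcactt
Vip: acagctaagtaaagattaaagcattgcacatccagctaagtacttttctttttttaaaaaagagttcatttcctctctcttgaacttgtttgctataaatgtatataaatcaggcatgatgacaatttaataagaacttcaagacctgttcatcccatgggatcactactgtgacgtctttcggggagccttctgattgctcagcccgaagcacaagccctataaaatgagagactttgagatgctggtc
The Kiss1 window held 2 matches, both as TGACC, and the Nts and Vip windows held 0. At least 1 match was found in 35.2% of 32851 windows of the same length, and 2 or more in 8.2%. The paired element, GGTCA followed after 3 bases by TGACC, was in none of these 3 windows and in 0.06% of all windows. The RefSeq starts of Kiss1 and of Nts lie inside the gene spans that GENCODE gives, so other starts of these genes have other windows. The Nts span ends at 102490486, so part of its window lies within it. A match describes the letters of the window, and binding was not measured.

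The other called gene, and the single one called higher of 16360 (0.00611%), was Gm5643, which GENCODE annotates as a processed pseudogene on chromosome X from 142297565 to 142298530. It stood at 0, 0.0220 and 0.106 CPM in the intact and 18.4, 6.96 and 5.16 CPM in the ovariectomized supernatants. The log2 fold change was 7.64 ± 0.86 (adjusted p 0.0047, edgeR). A fitted fold change against a group with next to no counts depends on the prior count of the fit, so this value is no bound. With the numbering term it no longer passed (log2 6.54, adjusted p 0.138). In the 7 male supernatants it lay between 0 and 0.221 CPM, and in the 13 immunoprecipitates between 0.0247 and 47.3 CPM with a median of 17.7. Its estimated counts were not whole numbers in 26 of 26 libraries, whereas those of Kiss1 were whole in 26 of 26. A processed pseudogene shares sequence with its parent gene, and how reads matching several places were shared out is not given, so its level is uncertain.

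Beyond these 2 of 16360 genes (0.0122%) no gene passed in edgeR. At an unadjusted p under 0.05, 741 genes were higher (4.53%) and 455 lower (2.78%) after ovariectomy. This balance turned without intact replicate 2 (925 higher and 1241 lower) and with only the 6 female supernatants (90 and 328), and with upper quartile scaling it was 599 against 521. The CPM of the groups did not overlap for 618 higher (3.78%) and 477 lower genes (2.92%). The calls depended on ovariectomized replicate 2, and without it edgeR called 424 genes higher and 81 lower. DESeq2 called 2 higher and 6 lower. Across 14679 genes with a known transcript length, the log2 difference ran against length (Spearman -0.361 across genes, which share their libraries and are not replicates). Genes with an unadjusted p under 0.05 had a median length of 1662 bases if higher and 4609 if lower, against 3318 for all. Without ovariectomized replicate 2, where 424 and 81 genes were called, Spearman was -0.441. The median lengths there were 1784 bases if higher and 4974 if lower, against 3299 for all. With the trend removed from each library, 420 of 14679 genes were higher and 372 lower at an unadjusted p under 0.05, Spearman was 0.00951, and Kiss1 was at -2.72 (adjusted p 0.00212).

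**Figure D2:**
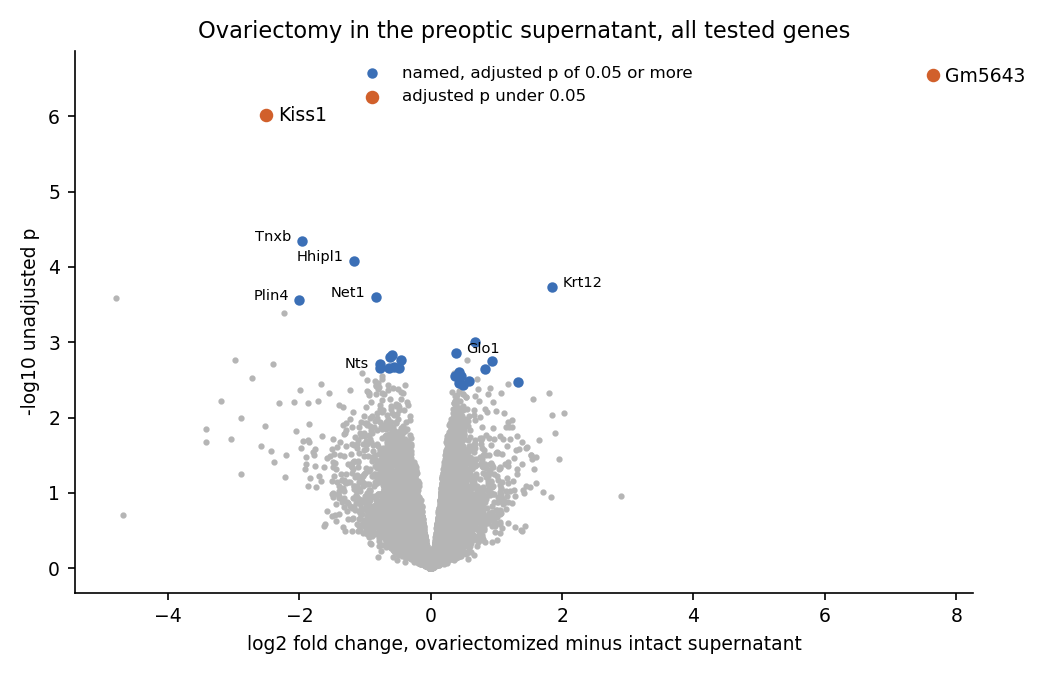
Log2 fold change of ovariectomized minus intact supernatant (x axis) against -log10 of the unadjusted p (y axis) for 16360 genes. Kiss1 (-2.51) and Gm5643 (7.64), in orange, passed an adjusted p under 0.05, and the blue genes are the 24 described next.

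The 24 genes described next were ranked by unadjusted p among those of at least 1 CPM whose groups did not overlap, that kept their direction with the numbering term and reached an unadjusted p under 0.05 without intact replicate 2. Their separation was thus part of the choice, and they are given as values that did not pass, with adjusted p from 0.245 to 0.653 in edgeR. Of the 12 with lower values, Tnxb, which encodes the extracellular matrix protein tenascin X, was at 2.42, 3.82 and 1.93 CPM in intact and 0.792, 0.931 and 0.413 CPM in ovariectomized libraries. Its log2 difference was -1.96 ± 0.34 (adjusted p 0.245), and -2.16 without intact replicate 2 (adjusted p 0.0716). Plin4, a lipid droplet coat protein, was at 3.65, 2.50 and 1.12 against 0.717, 0.521 and 0.567 CPM (log2 -2.001 ± 0.42). Both genes had their lowest intact value in replicate 2. Both averaged under 1 CPM in the ovariectomized libraries (0.712 and 0.602), so they reached the minimum of 1 CPM through the intact group.

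Hhipl1, a relative of the hedgehog-interacting protein gene, was at 9.80, 11.5 and 7.66 CPM in intact and 3.85, 5.17 and 3.92 CPM in ovariectomized libraries (log2 -1.16 ± 0.22, adjusted p 0.346). Net1, an activator of the small GTPase RhoA, was at 15.3, 16.4 and 13.9 against 6.38, 9.27 and 9.93 CPM (log2 -0.83 ± 0.17, adjusted p 0.562). Tnxb, Hhipl1, Net1 and Plin4 passed in DESeq2, with adjusted p of 0.000402, 0.0014, 0.00973 and 0.0132. These genes were chosen from the same libraries for separate groups, so passing there is no independent support. Of smaller size were Mgat5, which branches N-glycans (-0.77), Hs3st5, a heparan sulfate sulfotransferase (-0.59), Kif13a, a kinesin motor (-0.46), Appl2, an endosomal adaptor (-0.48), Brpf3, a chromatin reader (-0.56), Ccdc142 (-0.62) and Ddx26b (-0.64). Ccdc142 had the tightest groups of these, at 10.4, 10.6 and 9.99 against 6.98, 6.81 and 6.34 CPM. Nts, also among the 12 with lower values, is given with the neuropeptide genes.

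Among the 12 with higher values, a pair of neighbouring keratin genes on chromosome 11 had the largest log2 differences. Krt12 was at 1.27, 0.373 and 0.692 CPM in intact and 3.55, 2.98 and 1.88 CPM in ovariectomized libraries (log2 1.85 ± 0.37, adjusted p 0.562). Krt20 was at 0.648, 0.198 and 0.869 against 1.13, 1.71 and 1.495 CPM (log2 1.32 ± 0.38). Both averaged under 1 CPM in the intact libraries (0.779 ± 0.456 and 0.572 ± 0.342, SD, n = 3), so they reached the minimum of 1 CPM through the ovariectomized group. Krt12 passed in DESeq2 (adjusted p 0.00361), on the same libraries from which it was chosen. Abundant genes with small differences were Glo1, glyoxalase I, which clears methylglyoxal, and Cryab, a small heat shock protein. Glo1 was at 235, 244 and 277 against 311, 351 and 324 CPM (log2 0.39 ± 0.10), and Cryab at 156, 164 and 158 against 244, 228 and 172 CPM (log2 0.43 ± 0.12). Pim1, a serine/threonine kinase, had a log2 of 0.93, and Dusp14, a phosphatase, 0.49. The others were Thg1l, which adds a guanosine to histidine tRNA (0.83), the mitochondrial carrier Slc25a47 (0.68), Npl, which cleaves sialic acid (0.59), the U1 snRNP subunit Snrpc (0.45), Fam181b (0.43) and the carboxypeptidase inhibitor Lxn (0.38).

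**Figure D3:**
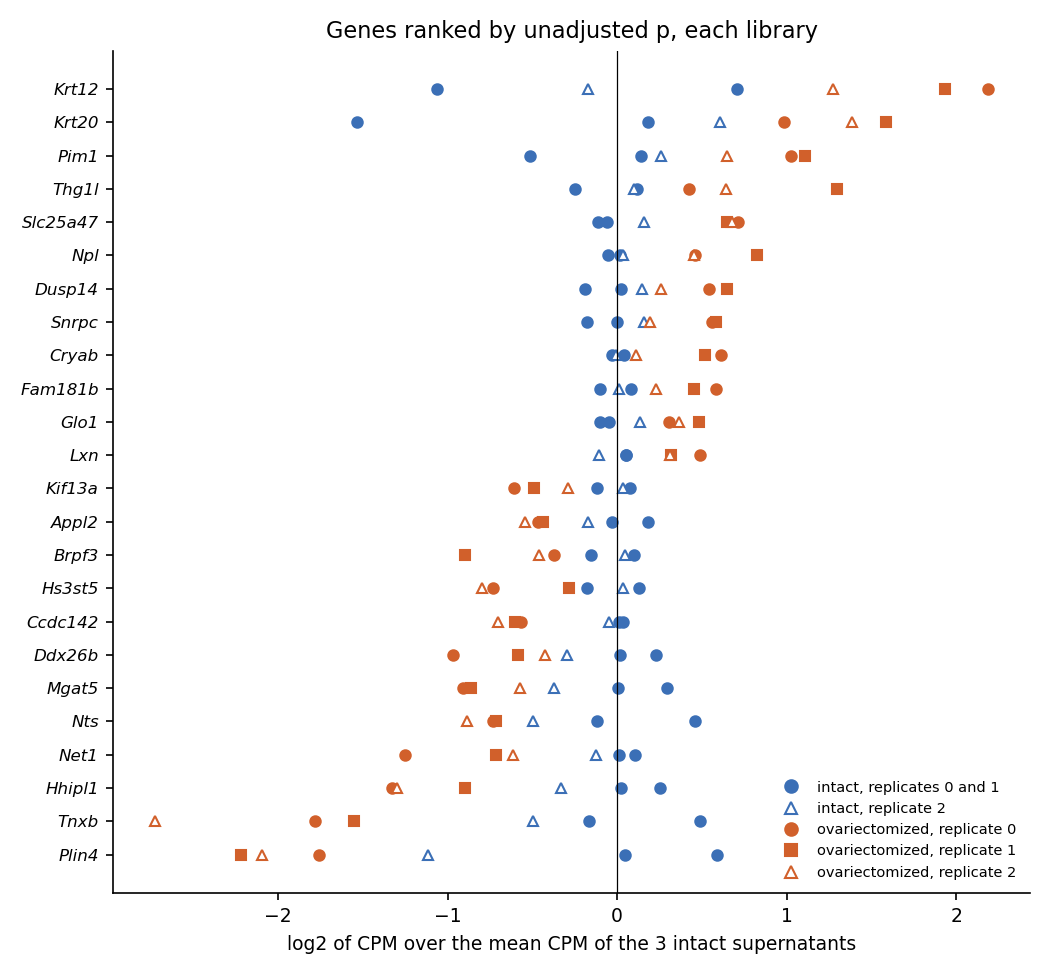
Level of each of the 24 ranked genes in each female supernatant, as log2 of CPM over the mean CPM of the 3 intact libraries (x axis), blue for intact and orange for ovariectomized. Symbols mark the replicates, and the groups are separate for every gene because the ranking required it. Ovariectomized replicate 2 is the ovariectomized library nearest the intact ones for Cryab, at 172 CPM against 228 and 244.

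Neuropeptide genes were the group around Kiss1. Of 36 listed, 35 were tested, and 10 had higher and 25 lower values after ovariectomy, with a median log2 of -0.18 against 0.01 for all tested genes. The median was 0.21 with the numbering term and -0.35 without intact replicate 2. Kiss1 was the single one called, and 3 had groups that did not overlap, all lower (2.92% of all genes). Nts, which encodes neurotensin, was at 51.3, 76.6 and 39.5 CPM in intact and 33.6, 34.0 and 30.2 CPM in ovariectomized libraries (log2 -0.78 ± 0.21, adjusted p 0.653). Nts is among the ranked genes above, so its separation was part of the choice there. Vip, a peptide of the suprachiasmatic nucleus, was at 20.96, 13.4 and 8.07 against 5.81, 3.72 and 3.76 CPM (log2 -1.67 ± 0.48, adjusted p 0.653). In both genes intact replicate 2 lay closest to the ovariectomized libraries, and with the numbering term the log2 was -0.38 for Nts and -0.73 for Vip. The 10 tested markers of the suprachiasmatic nucleus, Vip among them, summed to 188 to 421 CPM in intact and 158 to 286 CPM in ovariectomized libraries, and 9 of the 10 had lower values. Their part in the Vip values was not tested.

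Gal, which encodes galanin, was at 82.9, 110 and 46.2 CPM in intact and 61.2, 40.9 and 48.0 CPM in ovariectomized libraries (log2 -0.67 ± 0.28, adjusted p 0.653). Adcyap1, the gene of the peptide PACAP, was at 22.7, 22.8 and 11.7 against 10.4, 10.5 and 16.7 CPM (log2 -0.60 ± 0.27). In both genes the groups overlapped, since intact replicate 2 lay among the ovariectomized libraries, and with the numbering term the log2 was -0.01 for Gal and -0.04 for Adcyap1. The log2 of Penk, the enkephalin precursor, was -0.06 and that of Tac1, the substance P precursor, -0.04, and intact replicate 2 was the lowest of the 6 libraries for both. Cck had a log2 of 0.69 and Sst 0.50 (adjusted p 0.672 and 0.653).

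**Figure D4:**
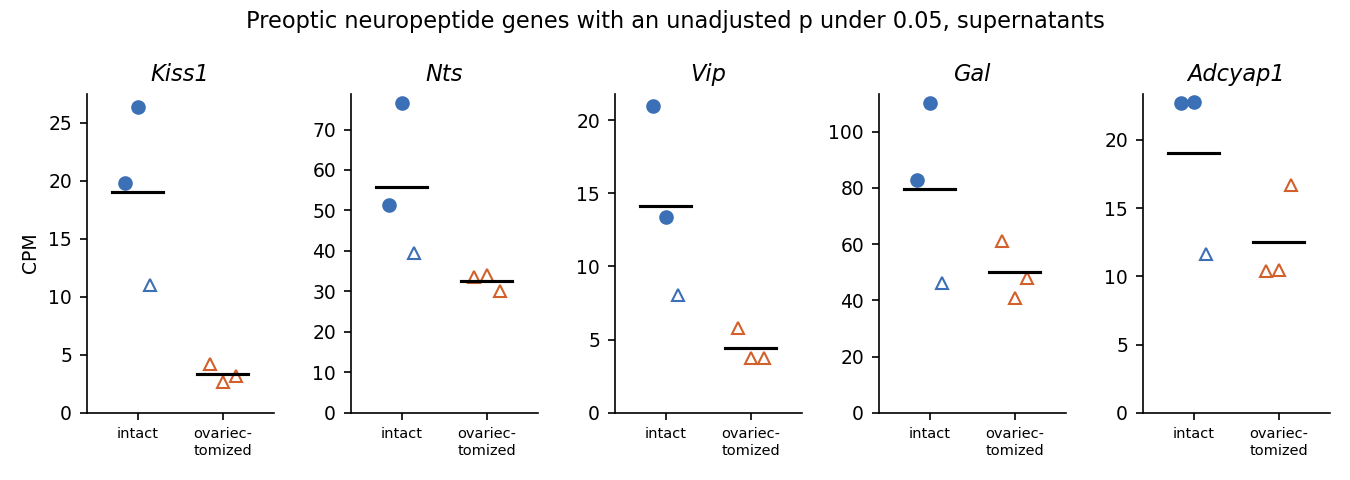
CPM of the 5 neuropeptide genes with an unadjusted p under 0.05 in intact and ovariectomized supernatants, on linear axes from 0. Filled circles are libraries numbered 1 to 10, open triangles those numbered 11 to 30, and bars are means. In each panel intact replicate 2 is the lowest intact library, and for Gal (46.2 CPM) and Adcyap1 (11.7 CPM) it lies among the ovariectomized ones.

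The other members of the kisspeptin pathway did not pass. Kiss1r, the kisspeptin receptor that GnRH neurons carry, was at 11.1, 10.4 and 13.3 CPM in intact and 11.4, 10.01 and 10.2 CPM in ovariectomized libraries (log2 -0.14 ± 0.15). Kiss1r is also 1 of the 12 pull-down transcripts, and intact replicate 2, which holds these, was its highest library. Intact replicates 0 and 1 lay within the range of the ovariectomized libraries. Tac2, which encodes neurokinin B, was at 22.3, 22.2 and 9.61 against 14.7, 10.4 and 10.2 CPM (log2 -0.61 ± 0.30, adjusted p 0.653), and 0.11 with the numbering term. Pdyn, the dynorphin precursor, had a log2 of -0.40, or 0.20 with that term. All 11 tested genes of the kisspeptin, tachykinin, dynorphin and RFamide list had lower values, with a median of -0.21, but with the numbering term the median was 0.09, and without intact replicate 2 it was -0.33. Arcuate kisspeptin neurons make the peptides of Tac2 and Pdyn beside kisspeptin. The values of both genes changed sign with the numbering term, and that of Kiss1 became smaller and kept its direction. For Tac2, intact replicate 2 (9.61 CPM) lay below both other intact libraries. Which kisspeptin neurons these values come from was not tested.

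Genes known to be made in the same periventricular neurons as Kiss1 had a median log2 near 0, with more lower than higher values. Of 14 tested, 4 had higher and 10 lower values, with a median log2 of -0.06 (-0.09 with the numbering term and -0.17 without intact replicate 2). Gal and Pgr were the 2 with an unadjusted p under 0.05 in edgeR, both lower, against 2.78% lower of all tested genes. The groups did not overlap for 1 gene, Pgr, against 2.92% lower of all tested genes. Th, the first enzyme of dopamine synthesis, was at 61.4, 73.2 and 74.6 CPM in intact and 81.4, 48.5 and 75.8 CPM in ovariectomized libraries (log2 -0.02 ± 0.17). Slc32a1, Gad1 and Gad2, which load and make GABA, had log2 values of 0.01, 0.00103 and 0.02. The groups overlapped for all 4.

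None of the 19 tested steroid receptors and coregulators passed. The groups did not overlap for 1 lower gene, Pgr, and 1 higher gene, Nr3c2, against 2.92% lower and 3.78% higher of all tested genes. Pgr, the progesterone receptor and a known target of estradiol, was at 34.5, 35.8 and 35.9 CPM in intact and 28.8, 28.8 and 32.9 CPM in ovariectomized libraries. The log2 was -0.23 ± 0.10 (unadjusted p 0.0455 and adjusted p 0.653, edgeR), -0.20 with the numbering term and -0.22 without intact replicate 2. Esr1, estrogen receptor alpha, ranged from 16.9 to 21.7 CPM in intact and from 10.4 to 33.3 CPM in ovariectomized libraries (log2 -0.02 ± 0.33), with ovariectomized replicate 2 the highest of the 6. Esr2, estrogen receptor beta, had a log2 of -0.03 and the mineralocorticoid receptor Nr3c2 0.28. Of the 19 genes, 6 had higher and 13 lower values (median -0.03). Of 14 genes of steroid synthesis, 11 had higher and 3 lower values (median 0.10), and none passed.

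The list of genes known from other work to respond to estrogen in the hypothalamus had 9 higher and 23 lower values among 32 tested, with a median of -0.09 (0.07 with the numbering term and -0.26 without intact replicate 2). Kiss1 was the single one called. Brs3, an orphan receptor related to the bombesin receptors, was at 5.31, 5.58 and 3.55 CPM in intact and 1.51, 2.16 and 3.66 CPM in ovariectomized libraries (log2 -0.96 ± 0.29, adjusted p 0.653). Irs4, an adaptor of insulin-like signalling, was at 54.3, 67.6 and 59.7 against 33.4, 27.2 and 64.9 CPM (log2 -0.53 ± 0.24). In both genes ovariectomized replicate 2 lay among the intact libraries. Greb1, a classical estrogen target, was near 1 CPM (log2 -0.62 ± 0.39), and Oxtr, the oxytocin receptor, had a log2 of 0.15.

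Receptors, GABA genes and glutamate genes had mostly lower values, with medians that changed sign with the numbering term. Among the female supernatants, intact replicate 2 is the only intact one numbered 11 or later. The numbering and other traits of that library thus cannot be told apart in them. Of 46 peptide receptors 39 were lower (median -0.20), of 23 GABA genes 18 (median -0.20) and of 21 glutamate genes 17 (median -0.22), and none was called. With the numbering term these medians were 0.10, 0.04 and 0.12, and without intact replicate 2 they were -0.40, -0.40 and -0.38. Intact replicate 2 lay below both other intact libraries for 41 of the 46 receptors (89.1%), 19 of the 23 GABA genes (82.6%) and 19 of the 21 glutamate genes (90.5%), against 41.4% of all tested genes. For 35 neuropeptide genes this held for 26 (74.3%). The receptors of lowest log2 were Ghsr, the ghrelin receptor (-1.72), and Vipr2, a VIP receptor (-1.43), both under 4 CPM in every library, and Calcr, the calcitonin receptor, was at -0.93.

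Immediate early genes, which neurons switch on within minutes of activity, ran the other way, with 20 of 24 higher and a median of 0.30, but -0.04 with the numbering term. Nr4a1, an activity-induced transcription factor, was at 30.5, 27.3 and 39.4 CPM in intact and 74.5, 75.7 and 40.4 CPM in ovariectomized libraries (log2 0.97 ± 0.37, adjusted p 0.653). Egr4 was at 19.8, 22.6 and 36.1 against 61.2, 57.7 and 32.3 CPM (log2 0.94 ± 0.34), and Arc, which acts at synapses, had a log2 of 0.76 and Fos 0.41. Ovariectomized replicates 0 and 1 were the high libraries for Nr4a1 and Egr4, and replicate 2 lay near intact replicate 2. Of 17 clock genes, 7 had higher and 10 lower values (median -0.05). Of 13 genes of prolactin and growth hormone signalling, 6 were higher and 7 lower (median -0.04).

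**Figure D5:**
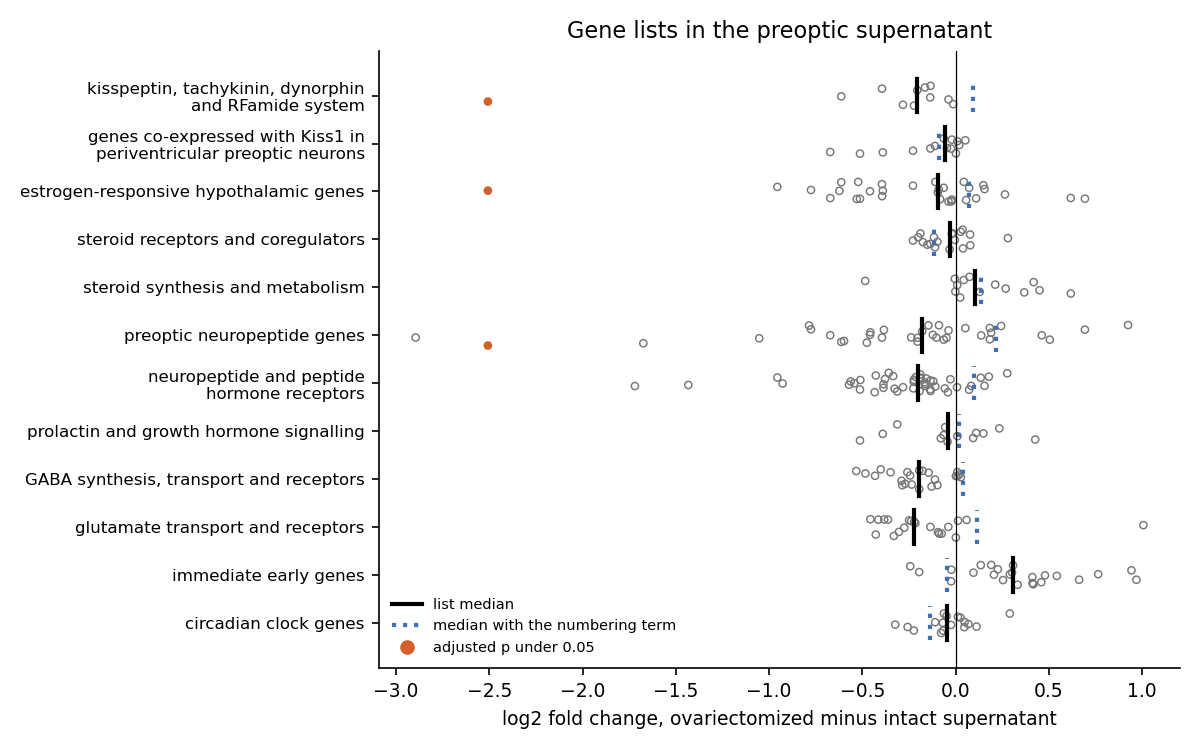
Log2 fold change of ovariectomized minus intact supernatant for every tested member of 12 gene lists. Circles are genes, orange where called (Kiss1 at -2.51, in 3 lists), black bars are list medians and dotted blue bars are medians with the numbering term. The medians of the receptor (-0.20) and glutamate lists (-0.22) change sign with that term, as does that of the immediate early genes (0.30).

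No marker of another cell type was called. Astrocyte markers summed to 1090 to 1415 CPM in intact and 1389 to 1431 CPM in ovariectomized libraries, with 7 of 12 higher and 5 lower. Their median log2 was 0.08, or 0.48 with the numbering term and -0.17 without intact replicate 2. The groups did not overlap for 2 of the 12, both higher, against 3.78% higher of all tested genes. Of these, Sox9, a glial transcription factor, was at 60.9, 55.1 and 53.6 against 82.5, 63.2 and 74.6 CPM (log2 0.38 ± 0.12, adjusted p 0.653). Oligodendrocyte markers summed to 2241 to 2400 and 2374 to 2516 CPM, with 9 of 12 higher. Microglial markers ranged from 70.9 to 146 and from 97.1 to 140 CPM, and endothelial and mural markers from 56.7 to 190 and from 51.4 to 94.1 CPM. Intact replicate 2 was the lowest intact library for 11 of 12 markers of astrocytes, of microglia and of endothelial cells. Of the pituitary markers, Fshb and Pou1f1 were at 0 in all 6 libraries. Cortical marker Slc17a7 varied within groups, at 1.82, 5.58 and 77.0 CPM in intact and 121, 21.7 and 27.5 CPM in ovariectomized libraries. The 7 cortical and hippocampal markers summed to 80.1 to 182 and 78.9 to 219 CPM, and their part in the results above was not tested.

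Across the supernatants, no gene was called in castrated against intact males in edgeR (0 of 16360, 0.0%), and no gene was called in the ovariectomy minus castration difference (290 at an unadjusted p under 0.05). Log2 values of both operations correlated across 16360 genes at a Pearson r of 0.127, as a description, since the genes share libraries and the numbering differs between the groups in both sexes. Nts had a log2 of -0.64 and Pgr -0.53 after castration, where neither passed (adjusted p 1.00 and 0.641), and Vip -0.28. In the immunoprecipitates of the same female pools no gene passed either (0 of 16160, 0.0%), and Nts was at -1.07, Vip at -1.88 and Gal at -1.40 (each adjusted p 0.994). These values were given without a numbering term. Gnrh1 in this fraction was at 20720, 16730 and 3140 CPM in intact and 6494, 5041 and 8669 CPM in ovariectomized females. The yield of the pull-down thus differed between the libraries, and its part in these values was not tested. Between both fractions the log2 values correlated at 0.00916 across 15897 genes. The change in the immunoprecipitate minus that in the supernatant called 0 genes with all libraries (1248 at an unadjusted p under 0.05) and 54 without intact female replicate 2, of which 51 were higher and 3 lower. Without that replicate, surgery and library numbering coincide among the females.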

How the data were processed

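RNA was measured by TRAP-seq in 26 libraries. Per the labels' protocols, SMART-Seq v4 cDNA, which does not mark strand, was sequenced as paired ends. The authors deposited estimated counts of fragments per gene, and the submitters' processing notes name mm10, Cuffdiff 2.1.1, Cufflinks, Bowtie2 2.1.0, TopHat2 2.0.9 and FastQC. The annotation is not given in the sources used here. Of the values, 1.46% were not whole, and all were rounded before testing.

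Genes were filtered with filterByExpr (minimum count 10, minimum total 15), leaving 16360 of 23107, and scaled with TMM over 13 supernatants, which has its own scale in the immunoprecipitates. Two-sided quasi-likelihood F-tests in edgeR 4.0.16 (R 4.3.3) with Benjamini-Hochberg adjustment used 4 groups. All adjusted p are from edgeR unless DESeq2 1.42.0 or limma 3.58.1 is named. SE is the log2 fold change divided by the square root of F. The biological coefficient of variation, the spread between supernatants of one group beyond counting error, was 0.181. The counts were made without molecular identifiers. Pools of one group differed by 20.3 to 134 chi-square per degree of freedom, so none was a repeat.

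The members and lists were chosen with earlier results of these data known. The ranked genes were the 12 per direction of lowest unadjusted p that met the rule in the text, among 178 higher and 167 lower genes that met it, and 2 predicted symbols were passed over. Of 395 list genes, 387 were in the table and 374 tested. Positions are GENCODE on mm10. The script was tested on simulated data. Alternatives were other scalings, filters, tools, a numbering term, a replicate block, each library left out and, chosen after seeing the data, removal of the length trend.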

Additional observations from a re-analysis of the deposited data

How the results depend on the processing

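Kiss1 kept its direction in every alternative run, with a log2 of -2.78 to -2.22 when each library was left out in turn, and it no longer passed without ovariectomized replicate 1. Its other values that did not pass were -2.42 in limma voom, -2.55 with only the 6 female supernatants and -1.77 in supernatants numbered 11 to 30, where 1 intact library stood against 3. The 1 gene called higher became 2 in DESeq2, and 0 in limma voom (545 at an unadjusted p under 0.05), with the numbering term (841) and in libraries 11 to 30 (423). The 1 called lower became 6 in DESeq2, and 0 in limma voom (348 at an unadjusted p under 0.05) and with the 6 female supernatants alone (328). With each library left out, 1 to 424 genes were called higher and 0 to 81 lower, the highest of both without ovariectomized replicate 2, while 2 were lower without intact replicate 0 and 0 without ovariectomized replicate 1. Gm5643 was lost in 3 alternatives. The enrichment difference between fractions called 0 genes and 54 without intact female replicate 2. Of 431 values of the 24 ranked genes, 414 kept their side of the threshold, 17 came to pass and 0 changed direction. Their choice required separate groups, and the same direction with the numbering term and without intact replicate 2. Their directions were thus largely fixed beforehand. Of 522 list medians, 50 moved by more than the spread between replicates. Same-numbered pools correlated at -0.100, 0.225 and 0.0694 in their deviations, and differently numbered ones at -0.234 to 0.165. Pairing by number was thus not shown, and so few pools cannot exclude it. With the replicate block Kiss1 was at -2.43 (adjusted p 0.011), 1 gene was higher and 2 lower, and with the block on the 6 libraries it was at -2.47 (adjusted p 0.0194). Groups of 3 pools and a numbering that goes with surgery limit what the comparison can show.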

Other observations

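Gnrh1 itself had a log2 of -1.05 ± 0.90 between ovariectomized and intact supernatants (adjusted p 0.754, edgeR) and of 1.73 without intact replicate 2 (unadjusted p 0.0133), so its direction rested on that library. Of the 12 pull-down transcripts, 11 were highest among the intact libraries in replicate 2 (91.7%), against 37.4% of all tested genes.

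Xist, the RNA that silences an X chromosome, was at 23.02, 16 and 6.30 CPM in the intact and 11.1, 12.99 and 7.89 CPM in the ovariectomized supernatants, so the library with most Y-linked counts also had the lowest Xist level of the 6. Low Xist was not particular to it, since ovariectomized replicate 2, at 7.89 CPM, held 0.928 CPM of Y-linked genes. In the immunoprecipitates Xist was at 39.8, 18.4 and 3.58 CPM in intact and 4.67, 7.45 and 4.40 CPM in ovariectomized females. Hcrt, the orexin precursor, was at 3.34 CPM in intact replicate 0 and between 0.0660 and 0.226 CPM in the other 5 libraries. Pmch, the melanin-concentrating hormone precursor, was at 5.28 CPM in intact replicate 0 and 5.67 CPM in ovariectomized replicate 2, and between 0.231 and 0.484 CPM in the rest. Both peptides are made in neurons of the lateral hypothalamus. The blood marker Hba-a1 was at 0 CPM in replicate 2 of both groups, and at 12.7 to 23.9 CPM in the other 4 libraries.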
